A study of Mus musculus with 8 samples.

Results

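The genes described here handle iron in or around the cell, and were read in endothelium sorted from the colon. They are lipocalin 2 (Lcn2), ceruloplasmin (Cp), hephaestin (Heph), transferrin receptor 1 (Tfrc), ferritin heavy chain 1 (Fth1) and haem oxygenase 1 (Hmox1). All probe sets annotated with exactly 1 gene symbol out of these 6 were taken, which gave 19 of the 34958 probe sets with 1 symbol, and 6 of 18194 named genes. A probe set is a group of short array probes summarised as 1 value. The genes were proposed with earlier results of the same comparison known, so their differences between the cell types are given as a description, without a test.

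RNA came from lymphatic endothelial cells (LEC), which line the vessels that drain tissue fluid, and blood vascular endothelial cells (BEC), which line blood vessels. Both were sorted from the colon of the same 4 healthy, unmanipulated C57BL/6J mice, aged 8 weeks, of which 3 were female and 1, mouse 4, was male. Each cell type of each mouse gave 1 single-colour array, so there were 4 LEC and 4 BEC arrays. Cells were stained for CD31, podoplanin and CD45.2 and sorted by flow cytometry, the RNA was amplified before hybridisation, and the pairs were chosen by the authors on the quality of this material.

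Iron enters most cells bound to transferrin through the transferrin receptor, is stored inside ferritin shells, and leaves through ferroportin, after which a copper ferroxidase (ceruloplasmin or its membrane-bound relative hephaestin) oxidises it so that transferrin can bind it. Haem oxygenase 1 opens the haem ring and sets its iron free. Lipocalin 2 is a secreted protein that binds siderophores, the small iron carriers of bacteria, and is known in the gut as an antibacterial protein of neutrophils and inflamed epithelium. Much of the control of Tfrc and Fth1 by iron acts on the stability and translation of their mRNA, which a transcript array reads only in part.

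All values are log2 signals, so a difference of 1 is a doubling of signal. Control probe sets for bacterial transcripts, 27 in number, set the background of an array, which was 3.43 at the lowest and 4.88 at the highest of the 8 arrays. The background was higher in LEC than in BEC of each mouse. In mice 1 to 4 it was 4.881, 4.321, 3.831 and 4.005 in LEC, and 4.516, 3.435, 3.428 and 3.433 in BEC. The sorted cells carried the markers of their labels. All 6 lymphatic markers with a probe set had a higher mean in LEC, and all 8 blood vascular markers had a higher mean in BEC. All 7 pan-endothelial markers were above background on every array, but all 7 had a lower mean in LEC. Their sums were 13.02 to 13.55 in LEC and 14.04 to 14.60 in BEC, and Esam differed most, by -3.55. LEC replicate 1 stood apart somewhat, with a median Spearman correlation of 0.603 to the LEC arrays of the other mice over 13259 genes, where those reached 0.745 to 0.746 (0.515 to 0.818 over all pairs of arrays).

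Markers of other cell types differed between arrays. The summed signal of 12 colon epithelium markers, on the log2 scale, was 14.46 in BEC of mouse 3, 13.41 in LEC of mouse 3 and 12.56 in BEC of mouse 4, and 8.46 to 10.78 on the other 5 arrays. Mouse 3 thus had the most epithelial marker signal in both cell types. The 7 fibroblast markers summed to 8.71 to 13.06 in LEC and 7.43 to 8.60 in BEC, with the highest sums in LEC of mice 2 and 4. The 10 macrophage markers summed to 8.97 to 10.44 in LEC and 6.22 to 7.80 in BEC, and Mrc1, which lymphatic endothelium is also known to express, was the brightest of them in LEC (9.33 ± 1.09, against 3.20 ± 1.20 in BEC; mean ± SD, n = 4). Of the 10, 7 had a higher mean in LEC. Adgre1, a macrophage surface receptor gene, was above background on 4 LEC arrays and 1 BEC array, and the lysozyme gene Lyz2 on 4 and 3, while C1qa was below background on all 8 arrays. The 8 neutrophil markers with a probe set summed to 6.52 to 7.91 in LEC and 5.58 to 6.85 in BEC, and 0 of the 8 were above background on all 4 arrays of either cell type. All 8 had a higher mean in LEC. Background was itself 0.56 higher on average in LEC. S100a9, Elane, Mpo, Ngp and Camp differed by 0.53, 0.52, 0.56, 0.24 and 0.24, and S100a8, Csf3r and Cxcr2 by 1.06, 1.84 and 3.31. S100a8 was above background on 3 LEC arrays and 0 BEC arrays, Csf3r on 2 and 0, and Camp on 3 and 3, and S100a9 and Cxcr2 were below background on all 8. Sums of erythroid (5.31 to 7.22), mesothelial (4.21 to 7.18) and glial (5.55 to 7.96) markers over all arrays were low, and those of smooth muscle and pericytes were 9.58 to 10.44 in BEC and 6.86 to 8.02 in LEC. In such sorted pools a smaller number of cells of a type and less RNA per cell cannot be told apart.

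**Figure D1:**
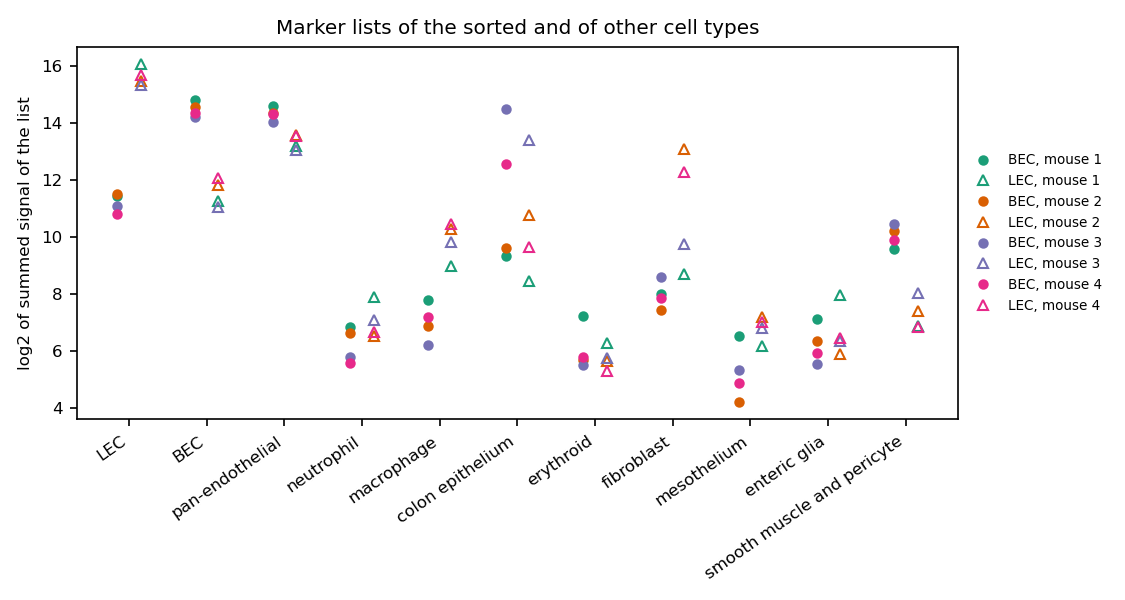
Log2 of the summed signal of each marker list (vertical axis) on the 8 arrays, with BEC as filled circles and LEC as open triangles, coloured by mouse. The lymphatic and blood vascular lists separate the cell types, and the epithelial list is highest in both arrays of mouse 3, at 14.46 in BEC and 13.41 in LEC.

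Sequence upstream of Lcn2, Cp and Fth1 is shown because these were the members whose LEC and BEC arrays did not overlap at the brightest probe set. RefSeq windows (GRCm38.p6) were matched by symbol for 4 of the 6 members. Each line holds the 250 bases that end just before the annotated start of transcription, in lower case, with matches to any of 6 searched motifs in capitals. Lcn2 lies on the minus strand (chr2:32387740-32387989), and Cp (chr3:19956999-19957248, the second of 2 annotated starts) and Fth1 (chr19:9982396-9982645, the second of 2) lie on the plus strand.
Lcn2: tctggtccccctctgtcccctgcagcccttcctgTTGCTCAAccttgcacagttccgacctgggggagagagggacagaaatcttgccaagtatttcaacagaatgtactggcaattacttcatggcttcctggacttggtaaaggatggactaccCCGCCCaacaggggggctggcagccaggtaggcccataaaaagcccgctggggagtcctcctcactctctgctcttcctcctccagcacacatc
Cp: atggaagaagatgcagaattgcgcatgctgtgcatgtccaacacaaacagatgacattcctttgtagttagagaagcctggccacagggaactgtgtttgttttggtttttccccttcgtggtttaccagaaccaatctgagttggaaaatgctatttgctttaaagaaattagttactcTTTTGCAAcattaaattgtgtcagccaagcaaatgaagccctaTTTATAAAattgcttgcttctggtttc
Fth1: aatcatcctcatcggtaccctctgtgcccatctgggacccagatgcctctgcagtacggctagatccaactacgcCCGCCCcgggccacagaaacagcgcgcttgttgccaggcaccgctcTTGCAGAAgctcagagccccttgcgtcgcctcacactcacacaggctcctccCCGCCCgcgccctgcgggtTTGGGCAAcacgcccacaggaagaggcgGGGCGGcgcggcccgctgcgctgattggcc

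Both strands were searched for TATAAA (the TATA box, in 12.4% of all 32851 windows of this length), GGGCGG (the GC box, 32.7%), ACGTG (the core of the hypoxia response element, 16.6%), TGACNNNGC (the antioxidant response element, 10.2%), TTNNGNAA (a C/EBP site, 36.8%) and the NF-kB consensus (7.25%). The window of Lcn2 held 1 C/EBP match and 1 GC box and was 56.4% G or C. The window of Cp held 1 C/EBP match and a TATA box at -25 to -20, which also matched on the other strand at -27 to -22, and was 39.2% G or C. The window of Fth1 held 3 GC boxes and 2 C/EBP matches and was 66.8% G or C. A C/EBP match was thus present in all 3 windows, but more than 1 in 3 of all windows have one. The windows of Tfrc, which are not shown, held no C/EBP match. These are matches of letters and were set against no measurement of binding.

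Lipocalin 2 separated the cell types by the widest margin among the members. Its probe set (1427747_a_at) read 9.88, 10.24, 9.73 and 10.77 in LEC of mice 1 to 4 and 0.50, 2.00, 1.21 and -0.67 in BEC of the same mice. All 4 LEC arrays were far above background, all 4 BEC arrays were below it, and the groups did not overlap. The means were 10.16 ± 0.46 in LEC and 0.76 ± 1.13 in BEC (SD, n = 4), a difference of 9.40 ± 0.76 (moderated SE). Since BEC gave no signal above background, the ratio is a bound: with values below background raised to it, Lcn2 was at least 87.6-fold higher in LEC, and at least 75.9-fold to at least 105.7-fold higher when 1 array was left out. Within the mice, the difference with BEC raised to background was 5.37, 6.80, 6.30 and 7.34 in mice 1 to 4, and each of these is a lower bound. Marker sums of fibroblasts and macrophages were also higher in LEC, without overlap. For fibroblasts the gap was narrow, with 8.71 in LEC of mouse 1 and 8.60 in BEC of mouse 3. The brightest macrophage marker in LEC was Mrc1 (9.33 against 3.20 in BEC), which lymphatic endothelium is also known to express. Of the 10 macrophage markers 7 had a higher mean in LEC, whereas Csf1r, C1qa and C1qb had a lower one. Neutrophil sums had overlapping ranges (6.52 to 7.91 in LEC and 5.58 to 6.85 in BEC). All 8 neutrophil markers were higher on average in LEC, where the background was also higher in each mouse. The part of these cell types in the Lcn2 signal was not tested.

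Ceruloplasmin was the member with the most probe sets, and all 8 read the same way. At the brightest (1455393_at) the signal was 12.43, 11.61, 11.30 and 11.50 in LEC of mice 1 to 4 and 7.40, 6.79, 6.44 and 6.93 in BEC. BEC was thus above background on all 4 arrays and still below every LEC array. The means were 11.71 ± 0.50 in LEC and 6.89 ± 0.40 in BEC (SD, n = 4), a difference of 4.82 ± 0.43 (moderated SE), or 28.2-fold. The difference was nearly the same in each mouse, from 4.57 in mouse 4 to 5.03 in mouse 1. Marker sums of fibroblasts and macrophages were also higher in LEC, and their part in the Cp signal was not tested.

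At each of the other 7 Cp probe sets the lowest LEC array also stood above the highest BEC array. Their differences in means ran from 4.36 to 7.14, with a median over all 8 sets of 5.29. The bounds with values raised to background ran from 8.29-fold at the dimmest set (1441326_at, below background on all 4 BEC arrays) to 80.9-fold at 1417496_at. The LEC values agreed closely between mice at 1417494_a_at (11.74 ± 0.14, SD, n = 4), whereas the BEC values of 5 sets spread with an SD of 1.93 to 2.35. One of these 5, 1448734_at, read 9.92 in BEC of mouse 1 and 5.27 to 6.01 in BEC of mice 2 to 4, so that mouse 1 differed by 1.69 there and by at least 7.17 at 1417496_at, where its BEC array was below background. The size of the Cp difference in this mouse thus varied with the probe set, while LEC was above BEC in all 32 pairs of arrays (8 sets in 4 mice), 8 of which had a BEC array below background.

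**Figure D2:**
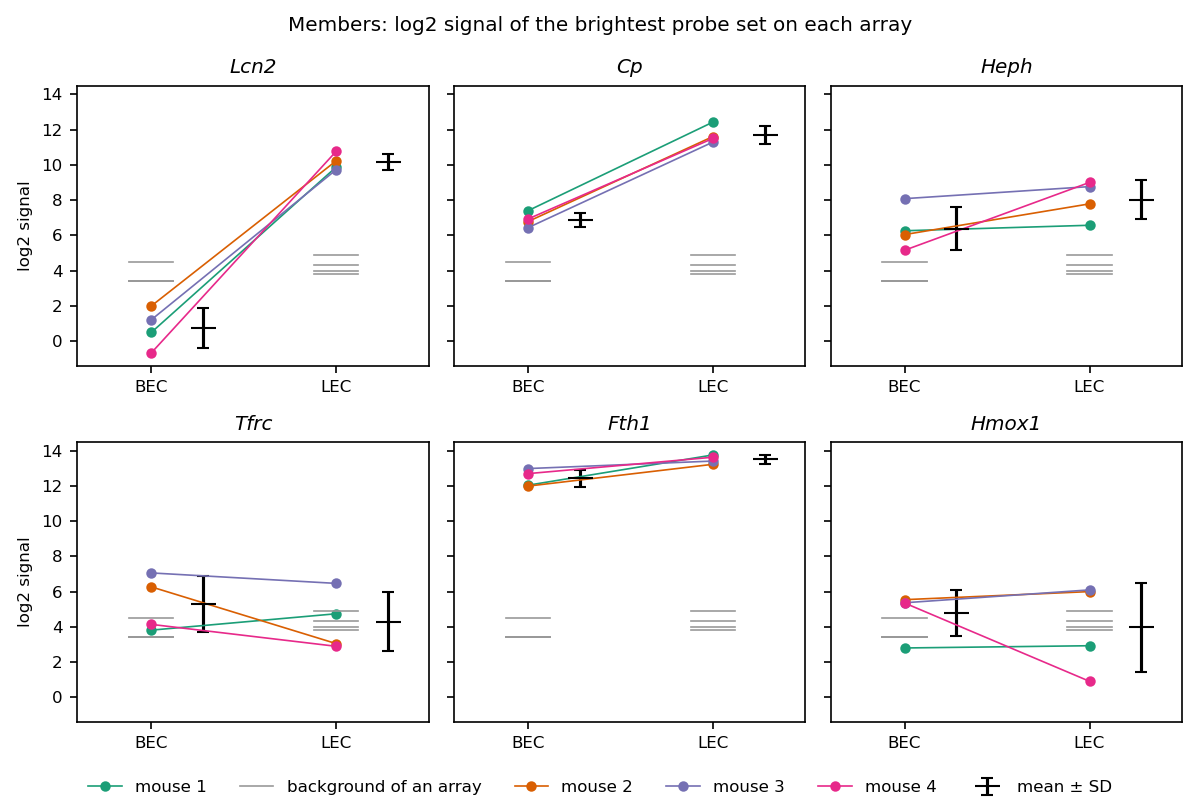
Log2 signal (vertical axis) of the brightest probe set of each member in BEC and LEC, with 1 line per mouse, grey bars for the background of each array, and black bars for the mean ± SD of 4 arrays. Lcn2 lies below background in all BEC arrays and at 9.73 to 10.77 in LEC, Cp and Fth1 are above background in both, and the Tfrc and Hmox1 values of the cell types overlap.

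Hephaestin, the membrane-bound ferroxidase known from the enterocyte, overlapped between the cell types. Its probe set (1448696_at) read 6.58, 7.79, 8.77 and 9.01 in LEC of mice 1 to 4 and 6.27, 6.05, 8.09 and 5.16 in BEC. Every array was above background, and LEC was above BEC of the same mouse in all 4 mice, by 0.31 in mouse 1 and 3.85 in mouse 4. The means were 8.04 ± 1.11 in LEC and 6.39 ± 1.23 in BEC (SD, n = 4), a difference of 1.65 ± 0.76 (moderated SE). The highest BEC value came from mouse 3, the mouse with the most epithelial marker signal. BEC of mouse 4, with the next highest BEC sum of these markers (12.56), gave the lowest Heph value of all arrays (5.16). In LEC the highest value was that of mouse 4, whose LEC sum was 9.65. The part of epithelial signal in the Heph values was not tested. Without both arrays of mouse 3 the difference was 1.97, an alternative chosen after seeing the data, and it ran from 1.24 to 2.21 when 1 array was left out. The 2 ferroxidase genes thus differed in pattern, Cp with groups far apart and Heph with groups that overlapped.

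Ferritin heavy chain, the ferroxidase subunit of the iron storage shell, was bright in both cell types and higher in LEC. The brighter probe set (1448771_a_at) read 13.76, 13.23, 13.41 and 13.63 in LEC of mice 1 to 4 and 12.04, 11.99, 12.99 and 12.70 in BEC. The lowest LEC array stood just above the highest BEC array. The means were 13.51 ± 0.23 in LEC and 12.43 ± 0.49 in BEC (SD, n = 4), a difference of 1.08 ± 0.24 (moderated SE), or 2.11-fold, and between 0.43 in mouse 3 and 1.72 in mouse 1. The other set (1427021_s_at), of a kind whose probes can match transcripts of more than 1 gene, gave 9.92 ± 1.32 in LEC and 7.85 ± 1.56 in BEC, with overlapping groups and a difference of -0.08 in mouse 3. The size of the Fth1 difference is therefore small beside that of Lcn2 and Cp and depended on the probe set. It also depended on scaling. At the brighter set it was 0.80 with equal array medians and 0.76 with quantile normalization, which gives all arrays the same distribution. Macrophage marker sums (8.97 to 10.44 in LEC and 6.22 to 7.80 in BEC) and fibroblast sums were also higher in LEC. Their part in the Fth1 signal was not tested.

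Transferrin receptor 1, the entry route of transferrin iron, had no common direction over its probe sets. Its 6 probe sets include 3 control sets placed along the transcript, and the differences in means ran from -2.60 to 1.22, with 3 above 0 and 3 below. The 3 sets above 0 were 1422966_a_at and the control sets for the 3′ end and the middle. They were above background on 2, 2 and 1 LEC arrays and on 1, 2 and 2 BEC arrays. With values raised to background they differed by 0.37, 0.54 and 0.53, and background was itself higher in LEC of each mouse. The 3 sets below 0 were each above background on 1 LEC array and 3 BEC arrays. The brightest set (1452661_at) read 4.75, 3.06, 6.47 and 2.90 in LEC of mice 1 to 4 and 3.82, 6.28, 7.07 and 4.15 in BEC. In both cell types the highest value was that of mouse 3, and only 1 LEC array was above background, against 3 BEC arrays. The means were 4.29 ± 1.68 in LEC and 5.33 ± 1.59 in BEC (SD, n = 4), a difference of -1.03 ± 1.03 (moderated SE), or -1.76 to -0.45 with 1 array left out. The control sets for the 3′ end, the middle and the 5′ end gave differences of 0.34, 0.03 and -2.60. The 5′ set was lower in LEC in all 4 mice, at 0.28 to 4.40 in LEC and 3.63 to 5.81 in BEC, yet the arrays overlapped, 3 of the 4 LEC arrays were below background, and mouse 3 alone (difference -1.41) had both arrays above it. Epithelial marker signal was also highest in mouse 3 in both cell types. At 1452661_at BEC of mouse 4 (epithelial sum 12.56) read 4.15, and BEC of mouse 2 (9.61) read 6.28. The part of epithelial signal in Tfrc was not tested.

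Haem oxygenase 1, the inducible enzyme of haem breakdown, was dim. Its probe set (1448239_at) read 2.94, 6.01, 6.10 and 0.92 in LEC of mice 1 to 4 and 2.81, 5.55, 5.37 and 5.36 in BEC. Mouse 1 was below background in both cell types and mouse 4 in LEC, and in mice 2 and 3 both cell types read between 5.37 and 6.10. The means were 3.99 ± 2.52 in LEC and 4.77 ± 1.31 in BEC (SD, n = 4), a difference of -0.78 ± 1.20 (moderated SE). LEC was higher by 0.46 in mouse 2 and 0.73 in mouse 3, and the difference in mouse 4 was -1.35 with its LEC value raised to background. Without LEC replicate 4 the difference turned to 0.24, so no direction can be given for Hmox1.

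**Figure D3:**
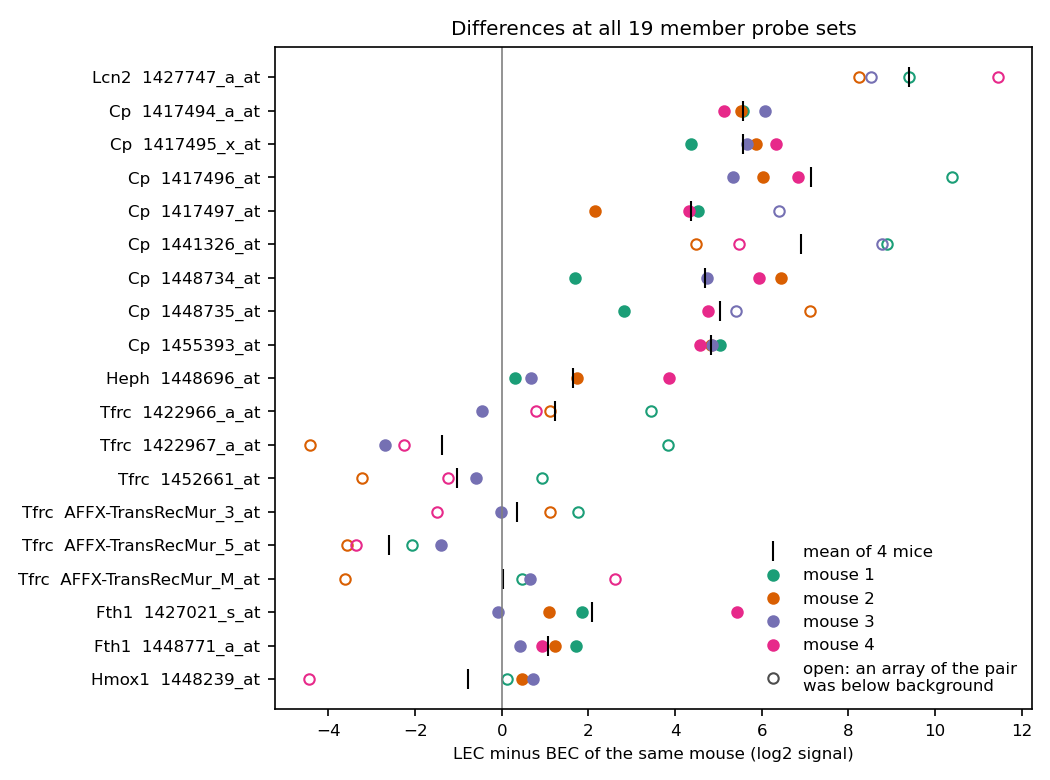
LEC minus BEC of the same mouse (horizontal axis, log2 signal) at all 19 member probe sets, with 1 coloured point per mouse and a black bar for the mean. Open points mark pairs with at least 1 array below background, whose size is not measured exactly. All points of Lcn2 and of the 8 Cp sets lie above 0, whereas the 6 Tfrc sets lie on both sides of 0.

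Over the 19 probe sets, 10 had LEC and BEC arrays that did not overlap, all higher in LEC. Of all 34945 probe sets with 1 gene outside the array controls, 4.27% were higher in LEC without overlap, and 7.9% did not overlap in either direction. In the limma fit over all 13259 genes kept, 3 of the 6 members (Lcn2, Cp and Fth1) passed an adjusted p of 0.05, all higher in LEC, against 4.07% of all genes. The members were chosen with this contrast known, so nothing is read from these counts. Lcn2 passed the filter on dim genes through its LEC arrays alone.

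The genes whose signal over the 8 arrays was most like that of Lcn2 were Mmrn1 (Pearson r = 0.997), Fndc1 (0.995) and Ptn (0.990), out of 13258 other genes. For Cp they were Sema3d (0.993), Ntn1 (0.988) and Thy1 (0.986), and all of these 6 genes had a higher mean in LEC. For Fth1 they were Ifi27l2a (0.987), Slc45a3 (0.974) and Slpi (0.966). For Heph they were Slc39a4 (0.962), Pmp22 (0.961) and Lrrn4 (0.958), for Tfrc Msra (0.943), Uap1 (0.938) and Cib1 (0.937), and for Hmox1 Gm5485 (0.983), Ppcs (0.950) and Dnajc11 (0.945). The 8 arrays form 2 groups, so these coefficients carry the difference between the groups together with that between mice, and are given as a description. Gm5485, Dnajc11 and Hmox1 were each above background on 2 LEC and 3 BEC arrays, and Lrrn4 on 2 and 1. Lcn2 and Sema3d were above it on 0 BEC arrays, so part of these coefficients rests on values below background.

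The rest of the iron and haem machinery was read through a list of 78 further genes. They were chosen for their known roles, but with earlier results of these data known. Of the 78 genes, 73 had a named probe set and 59 were tested. In limma's moderated test with Benjamini-Hochberg adjustment over all 13259 genes, 0 of the 59 passed in either direction, against 4.07% of all genes. At an unadjusted p under 0.05 there were 8 of the 59, and 1910 of all 13259 genes. The median difference of the list was 0.06, close to the 0.08 of all genes. Above 0 were 30 of the 59, and 7055 of all 13259 genes. No gene of the list passed beside the large differences at Lcn2 and Cp, and a p above the threshold does not show that the levels were equal. The count was 2, both lower in LEC (Slc48a1 and Neo1), when values were raised to background or when LEC replicate 4 was left out. It was 1 without LEC replicate 3 (Neo1, lower) or LEC replicate 1 (Nqo1, higher).

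**Figure D4:**
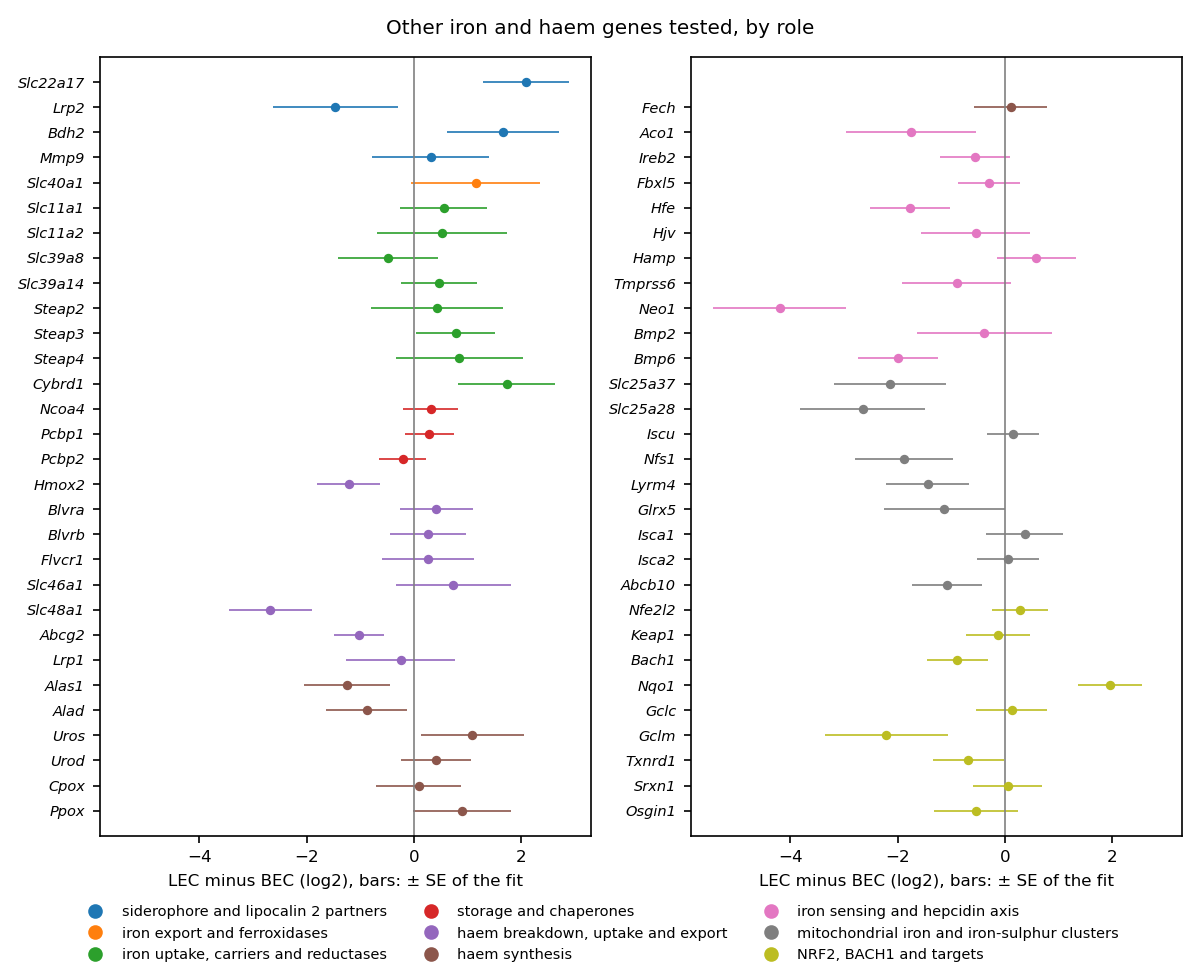
LEC minus BEC (horizontal axis, log2 signal) of the 59 further iron and haem genes tested, coloured by role, with the moderated standard error of the fit as bars. The points scatter on both sides of 0 with a median of 0.06, and none passed an adjusted p of 0.05.

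Among partners of lipocalin 2, its cell surface receptor gene Slc22a17 read 6.38 ± 0.66 in LEC and 4.29 ± 1.24 in BEC (SD, n = 4), with a difference of 2.09 ± 0.80 (SE, limma, adjusted p = 0.218). BEC of mouse 2 stood at 5.45, just above the lowest LEC array at 5.44, so the groups overlapped slightly. Bdh2, an enzyme linked to a mammalian siderophore, differed by 1.67 ± 1.05 (adjusted p = 0.525), and the endocytic receptor Lrp2 by -1.47 ± 1.17 (adjusted p = 0.647). None of the 4 partner genes passed the test.

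Ferroportin (Slc40a1), the iron exporter that works with Cp and Heph, had means of 6.53 ± 1.19 in LEC and 5.37 ± 2.87 in BEC (± SD, n = 4), with a difference of 1.15 ± 1.20 (SE, limma, adjusted p = 0.737). This value moved to 0.11 without BEC replicate 2 and to 2.40 without BEC replicate 3. Its BEC arrays ran from 2.25 in mouse 2 to 9.12 in mouse 3. As with Heph and Tfrc, the highest BEC value was that of mouse 3, whose epithelial marker sum was 14.46, and the part of that signal was not tested. The importer Slc11a2 differed by 0.53 ± 1.21 (adjusted p = 0.900), with a sign that turned under several alternatives. Of the 8 uptake and reductase genes tested 0 passed, and 7 lay above 0, where 7055 of all 13259 genes did. The storage partners Ncoa4, which delivers ferritin for breakdown, and the iron chaperones Pcbp1 and Pcbp2 differed by 0.31 ± 0.52, 0.29 ± 0.46 and -0.21 ± 0.45. Ferritin light chain (Ftl1) had no probe set with 1 gene symbol and was not analysed here.

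The genes of haem handling and iron sensing also gave no call. Hmox2, the constitutive haem oxygenase, read 8.10 ± 0.41 in LEC against 9.31 ± 1.20 in BEC (SD, n = 4; difference -1.22 ± 0.59, SE, limma, adjusted p = 0.376). The haem transporter gene Slc48a1 read 4.80, 5.53, 4.29 and 7.75 in LEC of mice 1 to 4 and 8.90, 8.62, 7.97 and 7.59 in BEC, so that only LEC of mouse 4 reached the BEC range (difference -2.68 ± 0.77, limma, adjusted p = 0.0775). The iron regulatory protein genes Aco1 and Ireb2 differed by -1.75 ± 1.22 (adjusted p = 0.580) and -0.56 ± 0.65 (adjusted p = 0.775). Without LEC replicate 1, which read 1.02 for Aco1, the Aco1 difference was -0.22, and that of Ireb2 ran from -0.85 to -0.21 with 1 array left out. In the hepcidin axis, Bmp6, a ligand known to pass on iron status from liver endothelium, was 6.67 ± 1.40 in LEC and 8.66 ± 0.93 in BEC (difference -1.99 ± 0.74, adjusted p = 0.208). Hfe, a partner of the transferrin receptors, was 5.39 ± 1.01 and 7.16 ± 0.99 (difference -1.77 ± 0.75, adjusted p = 0.289). The other Hfe probe set read 4.59 ± 0.69 in LEC and 6.78 ± 1.63 in BEC, without overlap. With averaged probe sets Hfe still missed the threshold (limma, adjusted p = 0.0821). The co-receptor gene Neo1 ran from 1.55 in mouse 1 to 8.75 in mouse 4 in LEC and from 8.98 to 10.36 in BEC, without overlap (difference -4.20 ± 1.25, adjusted p = 0.0877). Of its LEC arrays 2 were below background, and the difference was -3.30 with values raised to background, -2.86 without LEC replicate 1 and -1.90 with the mean of all probe sets. Of the 10 genes of this role 1 lay above 0, where 7055 of all 13259 genes did, and 0 passed.

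Of the mitochondrial iron and iron-sulphur genes 0 of 9 passed, and 0 of 9 among NRF2, BACH1 and their targets, the pathway known to induce Hmox1 and Fth1. The activator gene Nfe2l2 (NRF2) differed by 0.28 ± 0.52 (limma, adjusted p = 0.876) and the repressor gene Bach1 by -0.88 ± 0.56 (adjusted p = 0.532). Nqo1, a standard NRF2 target, was 8.00, 9.03, 9.93 and 10.25 in LEC of mice 1 to 4 and 7.87, 6.55, 7.18 and 7.76 in BEC. Its groups did not overlap, which 10.4% of all genes share, and it missed the threshold (difference 1.96 ± 0.59, adjusted p = 0.0938). Slc48a1, Neo1 and Nqo1 were singled out after their values were seen.

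Other lipocalins and genes known to be induced together with Lcn2 formed a further list of 41, also chosen with earlier results known. Of these 41 genes, 38 had a named probe set and 29 were tested. In limma 1 was higher and 0 were lower in LEC, against 1.76% and 2.31% of all genes, and 5 had an unadjusted p under 0.05. The gene called was Apod, apolipoprotein D, a lipocalin that carries small lipids. Its brighter probe set (1416371_at) read 8.38, 8.30, 7.10 and 7.85 in LEC of mice 1 to 4 and 4.38, 3.53, 4.73 and 4.14 in BEC, so the groups were well apart. The difference was 3.71 ± 0.65 (SE, limma, adjusted p = 0.00427, higher in LEC in 4 of 4 mice), at least 12.8-fold with values raised to background. The other probe set of Apod overlapped between the cell types (4.50 ± 3.31 in LEC and 2.02 ± 2.31 in BEC), and with the mean of both sets the call was lost (adjusted p = 0.0972; 0.00172 to 0.0213 under the other alternatives). With averaged probe sets the gene called was instead Il17ra, a receptor chain for interleukin 17 (adjusted p = 0.0471). Fibroblasts also express Apod, and their marker sum was higher in LEC (8.71 to 13.06) than in BEC (7.43 to 8.60). Their part in the Apod signal was not tested.

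The acute-phase and NF-kB genes that accompany Lcn2 in inflamed tissue gave 0 calls among 17 tested, with 4 at an unadjusted p under 0.05 and a median difference of -0.09. Saa3, an acute-phase protein gene, read 4.44 ± 0.54 in LEC against 3.10 ± 1.54 in BEC (SD, n = 4; limma, adjusted p = 0.598). Saa1 and Saa2, of the same family, differed the other way, by -1.09 ± 1.82 (SE, limma, adjusted p = 0.860) and -1.07 ± 1.14 (adjusted p = 0.747). Saa1 read 12.75 in BEC of mouse 3, whose epithelial marker sum was 14.46, and 1.08 to 5.37 in BEC of the other mice. The part of epithelial signal in Saa1 was not tested. The NF-kB target Nfkbia was 11.86 ± 0.54 and 11.93 ± 0.31 (adjusted p = 0.950). The cytokine gene Il6 and the neutrophil chemokine gene Cxcl2 were below background on all 8 arrays. The Saa genes, Nfkbia, Il6 and Cxcl2 were picked as examples after their values were seen.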

How the data were processed

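Total RNA of sorted LEC and BEC was hybridised to 8 arrays. The authors deposited log2 values, 1 column per array; the submitters' processing notes name MAS5, its version not given in the sources used here. The 2% trimmed mean of linear signals was the same on all arrays (100), read from the values. Values were used as deposited. For the fit, 64 control probe sets were left out, the probe set with the highest mean stood for a gene, and genes above the 40th percentile of the array on at least 4 arrays were kept (13259). They were fitted with limma 3.58.1 (R 4.3.3; lmFit, eBayes with trend), cell type as the only term, two-sided, adjusted by Benjamini-Hochberg, called under 0.05. The fit was tested on simulated data.

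Background is the 95th percentile of 27 Bacillus subtilis control probe sets per array; ratios with an array below it are bounds. Replicate numbers are mice, per the series design; deviations from group means of the same mouse correlated by 0.142, 0.0776, 0.181 and 0.0510. P-values measure the spread between animals together with amplification and array. The number of arrays limits the precision.

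Members and lists were chosen with earlier results of these data known. Named by rule are all members, listed genes that were called, the 3 genes most like each member, and markers. So are 11 listed genes fixed by name (Slc22a17, Slc40a1, Ftl1, Slc11a2, Aco1, Ireb2, Hfe, Bmp6, Hmox2, Nfe2l2 and Bach1). Other listed genes, among them Bdh2, Lrp2, Ncoa4, Pcbp1, Pcbp2 and Abcg2, are named outside this rule. Some of the others are said in their place to be picked later. Array names came from the 2016 platform annotation, updated through the gene number to RefSeq symbols. Alternatives were the mouse as a block, 2 scalings, 2 filters, no trend, averaged probe sets, values raised to background, and each array left out.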

Additional observations from a re-analysis of the deposited data

Results flagged for a closer look

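In 70 groups of 4 arrays (both cell types at the 19 member probe sets and at the 16 tested genes followed through the alternatives), 5 held an array far from the other 3, where chance alone gives about 1 in 20. At the Cp probe set 1448734_at, LEC replicate 3 read 10.74 with its nearest neighbour at 11.61, and BEC replicate 1 read 9.92 with its nearest neighbour at 6.01. For Hmox1, BEC replicate 1 read 2.81, and the nearest BEC array 5.36. For Abcg2, a haem and urate exporter, LEC replicate 1 read 7.64 with the nearest at 9.08. For Aco1, LEC replicate 1 read 1.02 with the nearest at 6.61. Of the 5 arrays 4 belong to mouse 1.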

How the results depend on the processing

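Lcn2, Cp and Fth1 were higher in LEC under all alternatives. The LEC minus BEC difference of Lcn2 became 6.45 with values raised to background, that of Cp 5.51 and of Fth1 1.57 with the mean of all probe sets. That of Fth1 fell from 1.08 to 0.80 with equal array medians and to 0.76 with quantile normalization. Over all genes, 234 were called higher and 306 lower (43.3% higher). With equal array medians the counts were 162 and 336 (32.5% higher) and the median difference moved from 0.08 to -0.20. With the mouse as a replicate block they were 236 and 298, and the block changed no call of a listed gene. Without 1 array they ran from 136 to 197 and from 164 to 318, and without both arrays of mouse 3, chosen after seeing the data, they were 129 and 159. In the iron list 0 genes were called higher and 0 lower; the count lower was 2 with values raised to background, and without 1 array the counts ran from 0 to 1 higher and from 0 to 2 lower. The signs of Slc11a2 (-0.36) and Aco1 (0.0035) turned with the mean of probe sets. Without 1 array Slc11a2 ran from -0.75 to 1.23 and Nfe2l2 from -0.030 to 0.77. Where a value moved, the cause was not tested.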

Other observations

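Regulators named in textbooks beside Lcn2 went both ways without a call, and these genes were chosen after their values were seen. Cebpb, a C/EBP transcription factor gene, read 9.02 ± 0.62 in LEC against 7.36 ± 0.52 in BEC (SD, n = 4), with groups that did not overlap (limma, adjusted p = 0.114). Cebpd was 8.49 ± 1.37 and 6.60 ± 1.43 (adjusted p = 0.308), and the interleukin 17 receptor gene Il17ra 9.76 ± 1.80 and 7.46 ± 2.00 (adjusted p = 0.299; 0.0471 with averaged probe sets), with BEC of mouse 1 at 10.33. Socs3, a feedback inhibitor of cytokine signalling, was 6.06 ± 0.62 in LEC and 7.86 ± 0.20 in BEC, also without overlap and in the opposite direction (adjusted p = 0.125).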
